A study of Mus musculus with 6 samples.

Results

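Notch signalling genes were described in 3 RNA-Seq libraries of PAKG-treated cells and 3 of untreated cells. The set was chosen by gene name and holds the receptors Notch1, Notch2 and Notch3, the ligands Jag1, Jag2 and Dll1, and the target genes Hes1, Hey1, Hey2 and Heyl. Of these 10 names, 9 matched a row of the tables, which hold 26187 genes, and the expression of Hey2 was not analysed here. MC3T3-E1 is a pre-osteoblast line from mouse calvaria, used as a model of the osteoblast lineage, and both groups were grown in the same osteogenic (OC) medium with serum, β-glycerophosphate and ascorbic acid-2-phosphate. The PAKG group received PAKG–8diol–PEG(S) MPs, microparticles of an α-ketoglutarate polyester with octanediol and PEG, at 30 μg/mL for 2 days. The OC group had no particles, and no group received empty particles or particles of another polymer, so responses to α-ketoglutarate and to particles as such cannot be told apart. The comparison addresses how pre-osteoblast transcripts differ after contact with the particles. Whether the 3 samples of a group were separate cultures is not stated, so the p-values cover no more than the spread among these 6 samples, and that spread may be technical.

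Notch receptors are membrane proteins that bind Jagged or Delta-like ligands on a neighbouring cell. Binding exposes the receptor to cutting by ADAM proteases and then by γ-secretase, which frees an intracellular domain that joins RBPJ and Mastermind in the nucleus and switches on genes of the HES and HEY families, themselves repressors of transcription. In bone, Notch signalling is known to hold back early osteoblast maturation, and its effect depends on the stage of the cell.

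Values were FPKM, fragments scaled to transcript length and library size, so levels can be set side by side between genes. The libraries were estimated at 32800000 to 42500000 fragments in PAKG and 32100000 to 37000000 in OC, at which 1 fragment on 1 kb is worth 0.0235 to 0.0305 FPKM in PAKG and 0.0270 to 0.0311 FPKM in OC. All 10 osteoblast lineage markers checked were above 0 in every library, with summed levels of 8428 to 9086 FPKM in PAKG and 5641 to 6725 FPKM in OC. The 4 endothelial markers found were each under 0.1 FPKM in every library. Mural cell markers summed to 8.30 to 11.1 FPKM in PAKG and 4.03 to 5.37 FPKM in OC, with 3 of the 6 found, Rgs5, Myh11 and Abcc9, under 0.1 FPKM in every library. Macrophage markers summed to 19.9 to 22.1 FPKM in PAKG and 13.1 to 17.4 FPKM in OC. Of 7 listed, 5 were found, with 4 above 0 in every library and 1 under 0.1 FPKM in every library. Which of them carries the sum is not given here. Muscle markers summed to at most 0.03 FPKM in PAKG and 0.04 FPKM in OC. Adipocyte markers summed to 0 to 0.07 FPKM in PAKG and 0.02 to 1.51 FPKM in OC, the highest being OC replicate 3. The part of these cell types in the results was not tested.

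Stretches of promoter are shown for Jag1, the tested gene of the set whose groups did not overlap, and for Notch2 and Notch1, the receptors whose ratio did not overlap between the groups. They are from RefSeq on GRCm38.p6, are written 5′ to 3′ on the strand of the gene, and leave out bases that GENCODE annotates as exon. Capitals mark, on either strand, the N box CACNAG and the CACGCG site, letters that HES repressors are known to bind. The Jag1 stretch (chr2:137116645-137116770, minus strand, 126 bases) and the Notch2 stretch (chr3:98013288-98013526, plus strand, 239 bases) end next to the first annotated base of the gene. The Notch1 stretch (chr2:26503825-26504072, minus strand, 248 bases) lies before the RefSeq start and inside an intron of a longer GENCODE transcript.
Jag1: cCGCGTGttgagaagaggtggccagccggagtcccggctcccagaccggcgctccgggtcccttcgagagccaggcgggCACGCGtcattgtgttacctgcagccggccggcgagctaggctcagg
Notch2: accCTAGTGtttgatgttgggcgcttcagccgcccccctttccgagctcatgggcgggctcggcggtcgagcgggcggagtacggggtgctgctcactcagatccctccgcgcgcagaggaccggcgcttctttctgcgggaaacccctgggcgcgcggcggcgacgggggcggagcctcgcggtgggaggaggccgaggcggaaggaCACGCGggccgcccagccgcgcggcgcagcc
Notch1: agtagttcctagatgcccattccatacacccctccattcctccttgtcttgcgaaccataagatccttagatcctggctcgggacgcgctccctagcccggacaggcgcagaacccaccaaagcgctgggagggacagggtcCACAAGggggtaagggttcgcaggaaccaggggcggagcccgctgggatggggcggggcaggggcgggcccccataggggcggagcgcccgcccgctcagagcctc

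The Jag1 stretch held 2 CACGCG sites, the Notch2 stretch 1 CACGCG site and 1 N box, and the Notch1 stretch 1 N box. Over all 32851 RefSeq windows of the 250 bases before a start, CACGCG occurred in 7.62% and CACNAG in 36.7%. Windows were found for 6 of the 9 genes with values, 7 windows in all, with 3 holding CACGCG and 3 holding CACNAG. The RBPJ motif TGGGAA (21.6% of all windows), its longer form GTGGGAA, which contains it (5.42%), and the E box CACGTG (6.02%) were in 0 of the 7 windows. The window of Hey2, the gene of the set without values here, held TGGGAA as part of GTGGGAA. These matches are a description of letters only. The 7 windows of genes with values had 56.0% to 87.2% GC. The shares over all windows were not matched for GC content, and enrichment was not tested.

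Notch2 was the most abundant member with a mean of 10.0 FPKM over the 6 libraries, followed by Jag1 with 3.27 FPKM, Notch1 with 2.67 FPKM, Hes1 with 1.45 FPKM, Notch3 with 1.29 FPKM and Dll1 with 0.278 FPKM. Hey1 averaged 0.0567 FPKM, and Jag2 and Heyl averaged 0.01 FPKM each. The ranges of Jag1 and Notch1 overlapped, although Jag1 was above Notch1 in 6 of 6 libraries, and Hes1 was above Notch3 in 3 of 6 libraries, so Hes1 and Notch3 did not differ beyond their spread. The steps between Notch2 and Jag1, Notch1 and Hes1, Notch3 and Dll1, and Dll1 and Hey1 had no overlap between libraries.

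**Figure D1:**
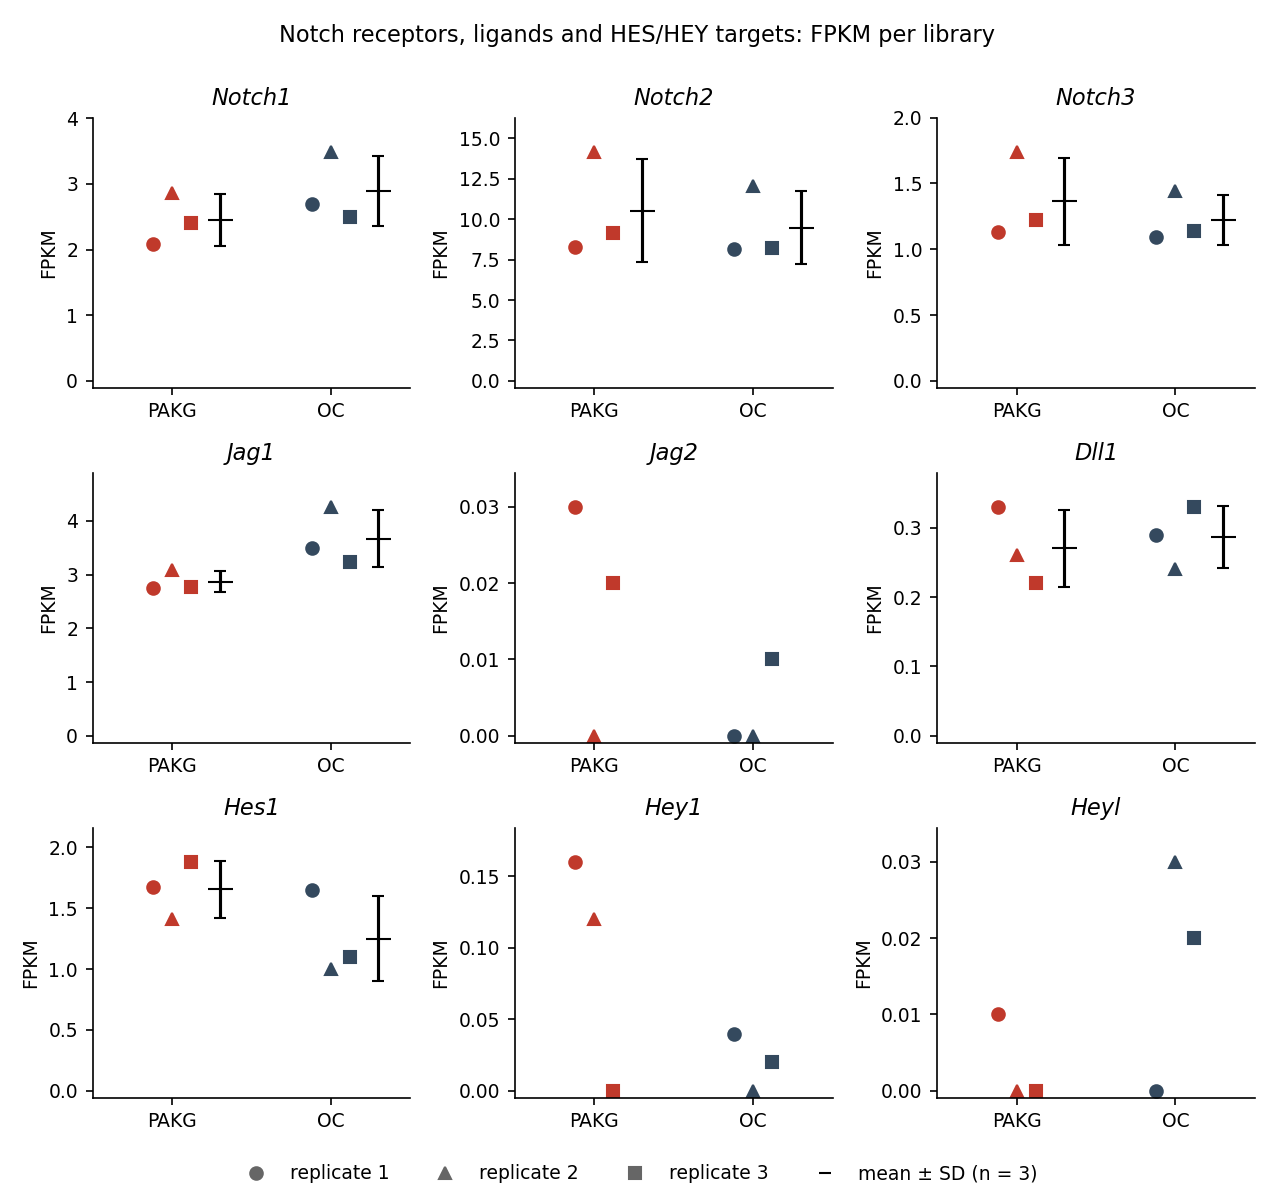
FPKM of the 9 genes in each library, with PAKG left of OC and a panel with its own axis for each gene; circles, triangles and squares are replicates 1, 2 and 3, and bars are the mean ± SD (n = 3), left out for Jag2, Hey1 and Heyl, which are listed at 0 in some libraries. Jag1 is the one panel of the 5 tested genes without overlap, at 2.75 to 3.09 FPKM in PAKG and 3.24 to 4.26 FPKM in OC, and replicate 2 is the highest sample of both groups for each receptor.

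None of the 5 genes abundant enough to be tested, Notch1, Notch2, Notch3, Jag1 and Hes1, passed the limma test without a replicate block. The test was applied to log2(FPKM + 0.1) for 12590 genes, those averaging 0.5 FPKM or more, with p adjusted over all of them. At an adjusted p under 0.05, 0 of the 5 were called, against 14.7% of all genes tested, and at a fold change of at least 2 as well, 0 of the 5, against 1.45%. At an unadjusted p under 0.05 in limma the count was 1, Jag1, against 28.8% of all genes. With the replicate number as a block, 1 of the 5 was called, again Jag1, against 29.5% of all genes. Block intervals on the log2 scale were -0.45 to -0.0041 for Notch1 and 0.0038 to 0.79 for Hes1. Their limma adjusted p with the block was 0.114 and 0.116. An interval without 0 corresponds to an unadjusted limma p under 0.05, reached with the block by 5312 of the 12590 genes. The block intervals of Notch2 (-0.014 to 0.28) and Notch3 (-0.15 to 0.41) held 0, with limma adjusted p of 0.147 and 0.420. Without the block, all 5 intervals of the fold change lay between 0.654 and 1.83. A change of 2-fold or more in either direction was outside the 95% interval of each gene. On simulated data, limma recovered 30% of true log2 changes of 0.5 at an adjusted p under 0.05, so smaller changes can go uncalled. In these bulk samples, fewer cells with a transcript and less of it per cell cannot be told apart.

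Notch1, a receptor with roles from T cell development to bone (ENSMUSG00000026923, chromosome 2, 26457903 to 26516663, GRCm38, minus strand), was at 2.08, 2.87 and 2.41 FPKM in PAKG, against 2.70, 3.49 and 2.49 FPKM in OC. The groups overlapped, with replicate 2 highest in each. The means were 2.45 ± 0.397 FPKM in PAKG and 2.89 ± 0.527 FPKM in OC (SD, n = 3 each), a log2 fold change of -0.23 (SE 0.16, limma adjusted p = 0.414). Notch1 was lower in PAKG in 3 of 3 pairs of the same replicate number. For such pair counts, here and below, the share over all genes was not computed. It is at least the 33.4% of genes tested whose groups did not overlap. The gene overlaps 0610009E02Rik on the opposite strand, which averaged 0.462 FPKM, and the use of strand in the counting is not given in the sources used here.

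Notch2, a receptor known from skeletal disease when truncated (ENSMUSG00000027878, chromosome 3, 98013527 to 98150361, plus strand), was at 8.27, 14.17 and 9.15 FPKM in PAKG, against 8.15, 12.07 and 8.24 FPKM in OC. Replicate 2 stood above the other libraries in both groups, and the remaining 4 libraries lay between 8.15 and 9.15 FPKM. The means were 10.5 ± 3.18 FPKM in PAKG and 9.49 ± 2.24 FPKM in OC (SD, n = 3 each), a log2 fold change of 0.13 (SE 0.23, limma adjusted p = 0.756). Its residual spread was at or above that of 93.0% of the genes tested. Notch2 was higher in PAKG in 3 of 3 pairs of libraries with the same replicate number. The log2 fold change was -0.10 without PAKG replicate 2 alone and 0.085 without replicate 2 of both groups.

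Notch3, a receptor best known from vascular mural cells (ENSMUSG00000038146, chromosome 17, 32120820 to 32166852, minus strand), was at 1.13, 1.74 and 1.22 FPKM in PAKG, against 1.09, 1.44 and 1.14 FPKM in OC. The groups overlapped, and again replicate 2 was highest in each. The means were 1.36 ± 0.329 FPKM in PAKG and 1.22 ± 0.189 FPKM in OC (SD, n = 3 each), a log2 fold change of 0.13 (SE 0.19, limma adjusted p = 0.712). Notch3 was higher in PAKG in 3 of 3 pairs of the same number. The log2 fold change was -0.045 without PAKG replicate 2 alone and 0.069 without replicate 2 of both groups. Mural cell markers, summed, were at 8.30 to 11.1 FPKM in PAKG and 4.03 to 5.37 FPKM in OC. Of the 6 found, 3 (Rgs5, Myh11 and Abcc9) were under 0.1 FPKM in every library. The part of mural cells in the Notch3 values was not tested.

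Jag1, the main ligand transcript in these cells (ENSMUSG00000027276, chromosome 2, 137081456 to 137116644, minus strand), was at 2.75, 3.09 and 2.77 FPKM in PAKG, against 3.49, 4.26 and 3.24 FPKM in OC. Every PAKG library was below every OC library. Among all genes tested, 33.4% had groups that did not overlap and 19.6% did so with PAKG lower, so 1 of 5 genes is close to the background share. The means were 2.87 ± 0.191 FPKM in PAKG and 3.66 ± 0.532 FPKM in OC (SD, n = 3 each), a log2 fold change of -0.33 (SE 0.12) or a fold of 0.793 (95% interval 0.654 to 0.963). The limma p was 0.0251 before adjustment and the adjusted p was 0.111. With the replicate number as a block the adjusted p was 0.0243 in limma (SE 0.07), under which 29.5% of all genes were called and 17.1% were called lower. Over all alternatives the adjusted p of Jag1 ranged between 0.0243 and 0.289, and its values were lower in PAKG under each of them.

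The other ligands were far less abundant than Jag1. Dll1, a Delta-like ligand (ENSMUSG00000014773, chromosome 17, 15367354 to 15376872, minus strand), was at 0.33, 0.26 and 0.22 FPKM in PAKG, against 0.29, 0.24 and 0.33 FPKM in OC, and was not tested. The groups overlapped, with means of 0.270 ± 0.0557 FPKM in PAKG and 0.287 ± 0.0451 FPKM in OC (SD, n = 3 each). Jag2, the second Jagged ligand (ENSMUSG00000002799, chromosome 12, 112907819 to 112929776, minus strand), was listed at 0.03, 0.00 and 0.02 FPKM in PAKG, against 0.00, 0.00 and 0.01 FPKM in OC. A difference in Jag2 was not detectable at this depth. Jag1 made up 88.4% to 92.2% of the summed FPKM of the 3 ligands in PAKG and 90.5% to 94.7% in OC.

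Hes1, the repressor most often used as a readout of Notch activity (ENSMUSG00000022528, chromosome 16, 30064384 to 30067796, plus strand), was at 1.67, 1.41 and 1.88 FPKM in PAKG, against 1.65, 1.00 and 1.10 FPKM in OC. OC replicate 1 was within the range of PAKG and the other 2 OC libraries were below it. The means were 1.65 ± 0.235 FPKM in PAKG and 1.25 ± 0.350 FPKM in OC (SD, n = 3 each), a log2 fold change of 0.40 (SE 0.20, 95% interval -0.07 to 0.87, limma adjusted p = 0.245). Hes1 was higher in PAKG in 3 of 3 pairs of the same replicate number.

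The HEY genes were barely detected. Hey1, a repressor related to Hes1 (ENSMUSG00000040289, chromosome 3, 8663359 to 8667256, minus strand), was listed at 0.16, 0.12 and 0.00 FPKM in PAKG, against 0.04, 0.00 and 0.02 FPKM in OC. By the depth estimate the highest library, PAKG replicate 1, corresponds to about 16.5 fragments over the gene and PAKG replicate 3 to 0. Heyl, the third HEY gene (ENSMUSG00000032744, chromosome 4, 123233556 to 123249875, plus strand), was listed at 0.01, 0.00 and 0.00 FPKM in PAKG, against 0.00, 0.03 and 0.02 FPKM in OC. At these counts no difference was detectable for either gene, and no fold is given.

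The 3 receptor genes had replicate 2 above the mean of replicates 1 and 3 in both groups, and Hes1 had it below. On the log2 scale replicate 2 was higher by 0.70 for Notch2, 0.53 for Notch3, 0.34 for Notch1 and 0.16 for Jag1 in PAKG, and by 0.55, 0.34, 0.41 and 0.33 in OC for the same genes in that order. Hes1 gave -0.31 in PAKG and -0.40 in OC. The same shift followed transcript length over all genes. For the 586 genes whose longest transcript exceeds 8 kb the median was 0.34 in PAKG and 0.35 in OC, and 88.9% of them were above 0 in both groups. For the 3740 genes under 2 kb the medians were -0.23 in PAKG and -0.18 in OC, with 10.0% above 0 in both. The median log2 fold change of PAKG over OC also varied with length, from -0.0097 under 2 kb to -0.081 over 8 kb. The longest transcripts of Notch2, Notch1 and Notch3 have 10500, 9488 and 8016 bases, that of Jag1 5612 and that of Hes1 1468. With the length trend removed from every library, a setting chosen after the data were seen, the limma log2 fold change was 0.19 for Notch2 (SE 0.11, adjusted p = 0.255) and -0.29 for Jag1 (adjusted p = 0.0342), under which 12.8% of all genes were called lower.

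**Figure D2:**
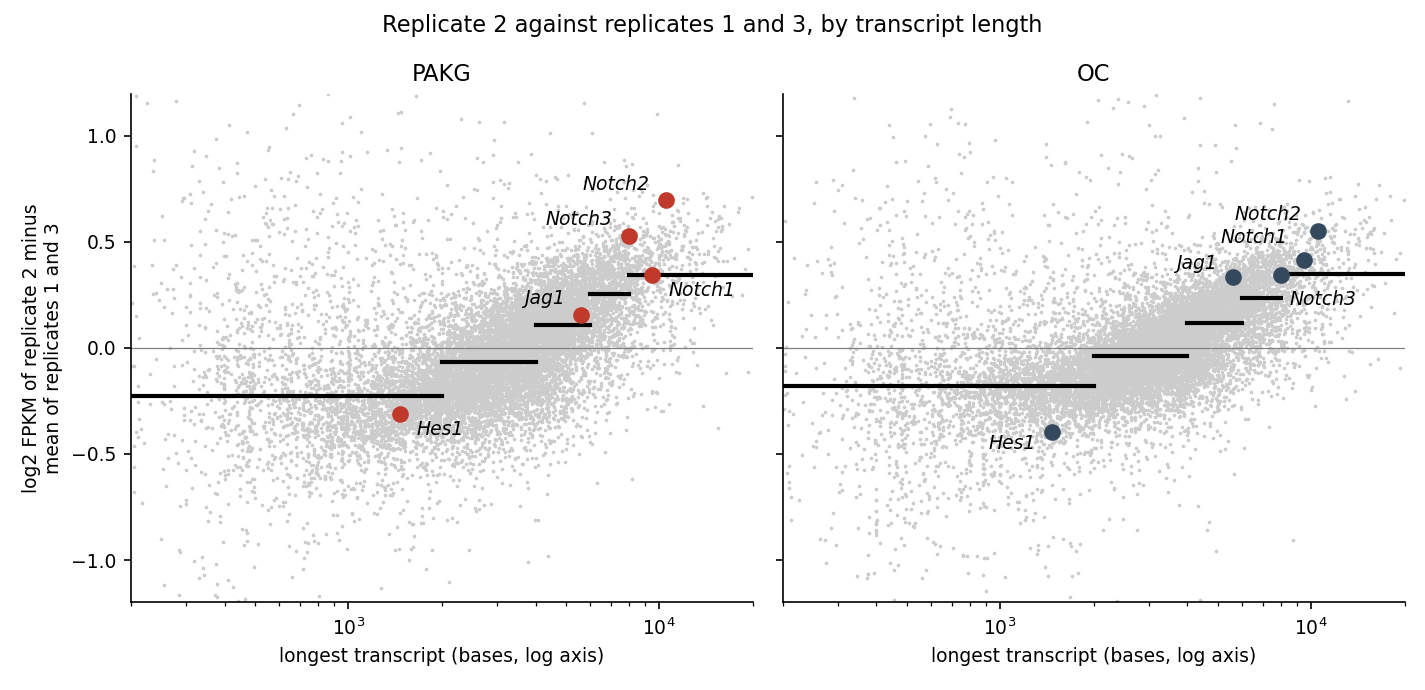
Log2 FPKM of replicate 2 minus the mean of replicates 1 and 3 (vertical axis) against the longest annotated transcript in bases (horizontal axis, log scale), for PAKG on the left and OC on the right; grey points are all genes tested, black bars are medians by length class, and coloured points are the 5 tested Notch genes. Medians climb with length from below 0 under 2 kb to 0.34 in PAKG and 0.35 in OC over 8 kb, and the receptors and Jag1 lie above 0 while Hes1 lies below.

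Ratios within a library were set beside the levels. The 6 ratios were chosen after the values were seen. Notch2 made up 72.0%, 75.5% and 71.6% of the summed FPKM of the 3 receptors in PAKG, against 68.3%, 71.0% and 69.4% in OC. The ratio of Notch2 to Notch1 was 3.98, 4.94 and 3.80 in PAKG, against 3.02, 3.46 and 3.31 in OC. Both measures were higher in every PAKG library than in any OC library. The ratio of Jag1 to Notch2 was 0.333, 0.218 and 0.303 in PAKG, against 0.428, 0.353 and 0.393 in OC, again with no overlap. An exact 2-sided permutation test gave p = 0.1 for each of these 3 ratios, the smallest value that 3 against 3 samples allow, and 0.2 after adjustment over the 6. For Jag1 to Notch1, Hes1 to Notch2 and Hes6 to Hes1, where the groups overlapped, the exact permutation p was 0.4, 0.6 and 0.2, in that order.

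**Figure D3:**
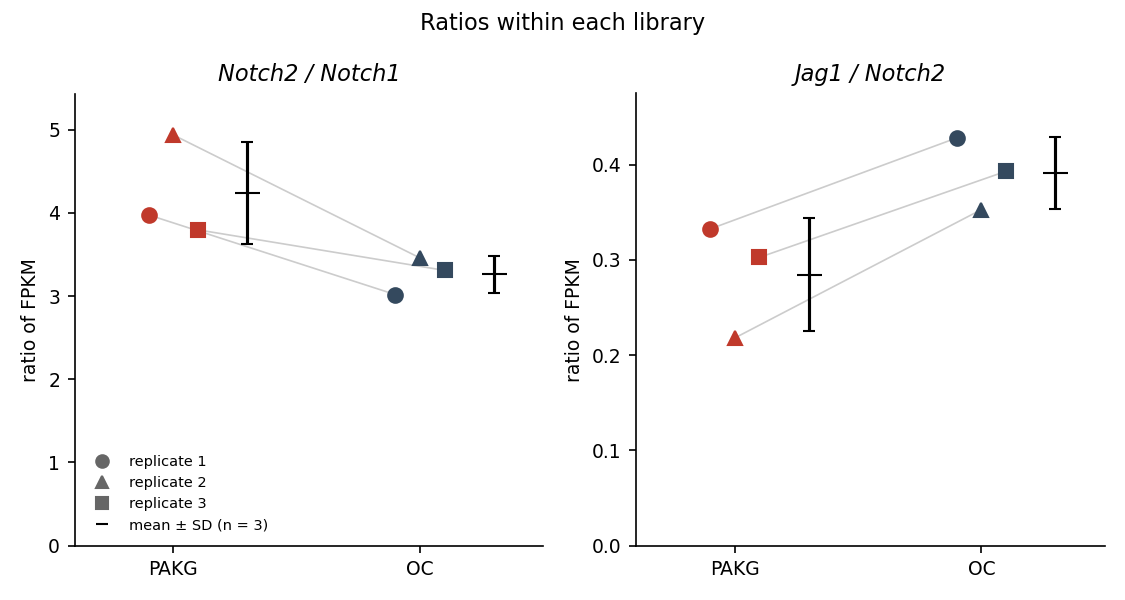
Ratio of FPKM of Notch2 to Notch1 (left) and of Jag1 to Notch2 (right) in each library, with PAKG left of OC in each panel; symbols are replicates, grey lines join libraries with the same replicate number, and bars are the mean ± SD (n = 3). Notch2 to Notch1 averages 4.24 in PAKG and 3.26 in OC, and Jag1 to Notch2 averages 0.284 in PAKG and 0.391 in OC.

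The rest of the pathway was read from 9 lists with 80 entries, 75 of them found in the tables and 62 tested. At an adjusted p under 0.05 in limma, 6 were higher and 4 lower in PAKG, or 16.1%, close to the 14.7% of all genes (5.97% higher and 8.73% lower), and 0 of the 62 also had a fold change of at least 2. At an unadjusted p under 0.05 the count was 14 of 62, against 28.8% of all genes. The median log2 fold change of the 62 was 0.03, beside -0.03 over all genes. With the replicate block 10 were higher and 4 lower, or 22.6% of the 62, against 12.3% higher and 17.1% lower over all genes. The 4 genes called by limma with the block alone were Psenen (adjusted p = 0.0344), Rfng (0.0313), Tle3 (0.0429) and Myc (0.0182), all higher in PAKG and named here after their values were seen. Rescaling every library to a common total split the calls over all genes into 871 higher and 764 lower, beside 751 and 1099 without it.

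Lfng, a Fringe glycosyltransferase that adds sugars to Notch receptors and so alters which ligands they answer to, rose in PAKG. It was at 20.22, 19.47 and 21.37 FPKM in PAKG, against 13.78, 11.05 and 11.87 FPKM in OC. Its groups did not overlap, as in 33.4% of all genes tested. Its log2 fold change was 0.73 (SE 0.09, limma adjusted p = 0.00255). Of the 4 receptor glycosylation genes tested, it was the 1 called, beside 14.7% of all genes. Among 9 genes of receptor cleavage, Furin, the protease that processes the receptors on their way to the surface, rose to 8.79 ± 0.961 FPKM in PAKG, against 6.70 ± 0.608 FPKM in OC (SD, n = 3 each), with a log2 fold change of 0.38 (limma adjusted p = 0.0498). It was the 1 gene of its list called without the replicate block, where 14.7% of all genes were called. Furin lost its call without PAKG replicate 1, 2 or 3 or OC replicate 1 or 3, with limma adjusted p of 0.0534, 0.0764, 0.139, 0.149 and 0.157 in that order, and with the libraries rescaled to a common total (0.0779), a pseudocount of 1 (0.0506), no filter (0.130) or no trend (0.0716).

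Among 6 genes of ligand ubiquitination and endocytosis, Neurl1b, a ubiquitin ligase acting on ligands, fell, the 1 call of its list, beside 14.7% of all genes. It was at 0.78, 1.02 and 0.92 FPKM in PAKG, against 1.38, 1.61 and 1.60 FPKM in OC. Its groups did not overlap, as in 33.4% of all genes tested. Its log2 fold change was -0.70 (SE 0.15, limma adjusted p = 0.0203). Its call was lost without PAKG replicate 1 or 3 or OC replicate 2 or 3, with limma adjusted p of 0.0635, 0.0719, 0.0616 and 0.0888 in that order. Of 10 receptor turnover genes, 2 rose and 1 fell, beside 14.7% of all genes called. Dtx3, of the Deltex ubiquitin ligase family, rose to 25.1 ± 1.97 FPKM in PAKG, against 16.5 ± 1.49 FPKM in OC (SD, n = 3 each), with a log2 fold change of 0.60 (SE 0.09, limma adjusted p = 0.00593). Fbxw7, which marks the Notch intracellular domain for degradation, was at 3.66, 3.48 and 3.75 FPKM in PAKG, against 2.91, 2.93 and 2.83 FPKM in OC. Its rise of 0.32 on the log2 scale (limma adjusted p = 0.0383) was lost without PAKG replicate 1 or 3 or OC replicate 1, 2 or 3, with adjusted p of 0.113, 0.173, 0.103, 0.0746 and 0.133 in that order, and with a common total (0.0517). Dtx3l, a Deltex-like ligase also known from interferon responses, was at 1.29, 1.78 and 1.07 FPKM in PAKG, against 2.47, 2.76 and 2.69 FPKM in OC. It fell by 0.92 on the log2 scale (SE 0.18, limma adjusted p = 0.0139), a call that was lost without OC replicate 3 (adjusted p = 0.0631).

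In the nucleus, 0 of the 9 genes of the activating complex were called by limma, with 0 at an unadjusted p under 0.05. The shares over all genes were 14.7% and 28.8%, so a list of 9 genes would hold few calls in any case. Kat2a, an acetyltransferase and the most abundant of them, averaged 26.1 ± 0.850 FPKM in PAKG and 25.3 ± 1.96 FPKM in OC (SD, n = 3 each), a log2 fold change of 0.05. Rbpj, the DNA-binding partner of all Notch receptors and named here after its values were seen, averaged 7.87 ± 1.17 FPKM in PAKG and 8.68 ± 0.335 FPKM in OC (SD, n = 3 each). Of 15 co-repressors, Tle2, a Groucho family protein that HES repressors recruit, rose to 21.5 ± 0.540 FPKM in PAKG, against 14.5 ± 0.459 FPKM in OC (SD, n = 3 each), with a log2 fold change of 0.57 (SE 0.06, limma adjusted p = 0.00154). Bend6, known to bind RBPJ and oppose Notch in neural cells, was at 5.74, 6.22 and 5.98 FPKM in PAKG, against 8.68, 8.43 and 8.80 FPKM in OC. It fell by 0.52 on the log2 scale (SE 0.07, limma adjusted p = 0.00304). The groups of Tle2 and of Bend6 did not overlap. Groups did not overlap for 3 of the 15 co-repressors, or 20.0%, against 33.4% of all genes tested. Tle2 and Bend6 were the 2 of 15 co-repressors called, beside 14.7% of all genes.

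Of 5 other Notch target genes tested, 1 rose and 1 fell, beside 14.7% of all genes called. Both are known to answer to several pathways. Sox9, a transcription factor of cartilage, was at 14.01, 12.97 and 13.17 FPKM in PAKG, against 7.21, 8.32 and 7.48 FPKM in OC, a log2 fold change of 0.80 (SE 0.08, limma adjusted p = 0.00103). Ccnd1, a cyclin of early cell cycle, averaged 64.2 ± 3.91 FPKM in PAKG and 77.9 ± 2.99 FPKM in OC (SD, n = 3 each), and fell by 0.28 on the log2 scale (limma adjusted p = 0.0412). The Ccnd1 call was lost without PAKG replicate 1 or 3 or OC replicate 1, 2 or 3, with adjusted p of 0.128, 0.158, 0.0863, 0.106 and 0.127 in that order, and with the libraries rescaled to a common total (0.151) or by median ratio (0.0636). Nrarp, a feedback target close to Notch activity and named here after its values were seen, was listed at 0.04, 0.00 and 0.02 FPKM in PAKG, against 0.07, 0.00 and 0.02 FPKM in OC.

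**Figure D4:**
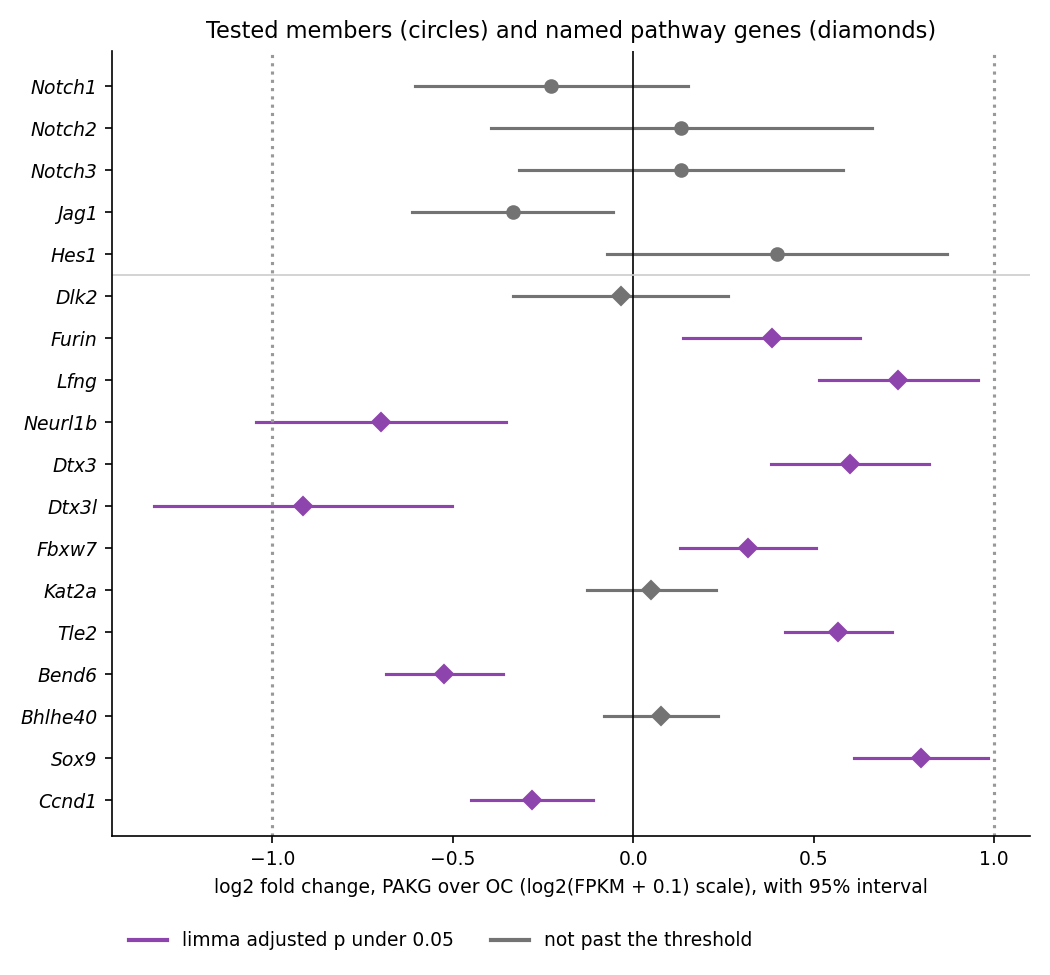
Log2 fold change of PAKG over OC on the log2(FPKM + 0.1) scale (horizontal axis) for the 5 tested Notch genes (circles) and the named pathway genes (diamonds), with 95% intervals from limma; purple marks an adjusted p under 0.05 and dotted lines mark a 2-fold change. The 5 Notch genes are grey, between -0.33 for Jag1 and 0.40 for Hes1, while Lfng at 0.73, Sox9 at 0.80 and Dtx3l at -0.92 are purple.

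**Figure D5:**
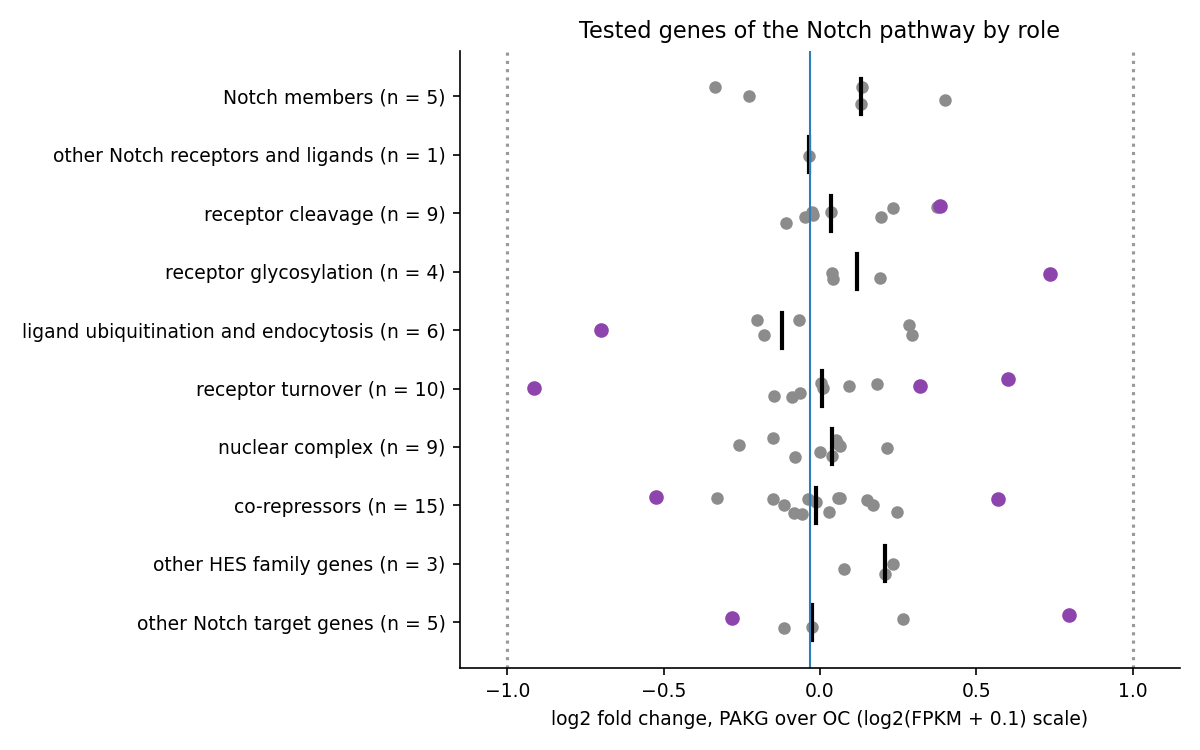
Log2 fold change of PAKG over OC for every tested gene of each pathway list and of the Notch genes; each point is a gene, purple points have a limma adjusted p under 0.05, black bars are list medians, the blue line is the median of all genes tested at -0.03, and dotted lines mark a 2-fold change. No point is purple in the rows of the 5 tested Notch genes, the other receptors and ligands, the nuclear complex and the other HES family genes. Over all genes tested, 14.7% passed that threshold.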

How the data were processed

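For each of 3 PAKG and 3 OC samples, the authors deposited FPKM per gene in a table of its own, rounded to 2 decimals. Per the submitters' processing notes, reads passed through cutadapt and FastQC and the tools HISAT2, StringTie and DESeq2 were used with the build GRCm38, and a service provider made the stranded poly(A) libraries; for versions, annotation release and the use of strand, nothing is given in the sources used here. FPKM are not counts, so no count test was run. Depth was estimated from the steps of low values of short genes.

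Of 26187 genes, the tables list 445 at 0 throughout, and the 12590 averaging 0.5 FPKM or more were compared on log2(FPKM + 0.1) in R 4.3.3 with limma 3.58.1. The test was lmFit followed by eBayes with a mean-variance trend, 2-sided, and p-values were adjusted by Benjamini-Hochberg across the genes tested. This scale understates the change of low genes. The thresholds were an adjusted p under 0.05, with or without a fold change of at least 2. For the 45 symbols with more than 1 gene ID, the ID with the highest mean was used. Coordinates are from GENCODE M21, which held 99.76% of the IDs, and promoters from RefSeq. Other steps used Python 3.11.15, matplotlib 3.10.9, pandas 2.3.3 and numpy 2.4.6. The fit was run on simulated data, where an adjusted p under 0.05 recovered 30% of true log2 changes of 0.5 and 84% of 1. Of its 155 calls, 4 were false.

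The members and lists were chosen with earlier results of these data known. All members are named, and from each list up to 3 genes with the smallest adjusted p under 0.05, or else the gene with the highest mean; genes named outside this rule are marked in the text. Both groups carry replicate numbers 1 to 3. Deviations from the group means correlated at 0.192 to 0.430 for the same number and at -0.312 to 0.138 for other numbers. All 3 pairs of the same number were above 0.1, the minimum set for treating samples as paired. The main fit and the permutation tests still left the number out, and it was fitted as a replicate block in an alternative. What the number marks is not stated. Other alternatives were pseudocounts of 1 and 0.01, a filter at a mean of 1 FPKM, no filter, rescaling to a common total or by median ratio, no trend, each library left out, replicate 2 of both groups left out and, added after the data were seen, the length trend removed. Protein sequences were not used here.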

Additional observations from a re-analysis of the deposited data

How the results depend on the processing

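For the 18 named genes with a fold change, 17 alternatives gave 306 values, of which 300 kept their direction and 266 also their side of the threshold; 31 calls were lost and 3 gained. The 3 gained were those of Jag1, so the count of Notch genes called lower was 1 with the replicate block, 1 with the length trend removed and 1 with both, where 17.1%, 12.8% and 14.8% of all genes were called lower, against 0 otherwise. The replicate block ended no call among the named genes. The counts of Notch genes called higher and of Notch genes changed at both thresholds were 0 under every alternative run. Over all genes, 182 were changed at both thresholds, against 90 with a pseudocount of 1 and 147 to 227 under the other alternatives. Leaving out 1 library at a time gave log2 fold changes between -0.34 and -0.088 (without OC replicate 2) for Notch1, between -0.42 and -0.22 for Jag1, between 0.27 and 0.60 for Hes1, between -0.10 and 0.32 for Notch2, between -0.045 and 0.25 for Notch3 and between -0.11 and 0.10 for Dlk2. Dlk2, a Delta-like protein at -0.03, was also at 0.010 with rescaling to a common total and at 0.022 without replicate 2 of both groups. Lfng, Dtx3, Tle2, Bend6 and Sox9 kept their calls under all 17, while Furin and Ccnd1 each lost theirs under 9, Fbxw7 under 6, Neurl1b under 5 and Dtx3l under 2. Leaving out 1 library also changed the calls over all genes, which were 751 higher and 1099 lower with all 6 libraries. They were fewest without PAKG replicate 3 (332 higher and 495 lower) and most without PAKG replicate 2 (988 and 1239). The causes of these shifts were not tested. Depth limits Jag2, Hey1 and Heyl, and rounding to 2 decimals is coarse at their levels.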

Other observations

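Hes6, a HES family gene known as an inhibitor of HES1 and named here after its values were seen, was more abundant per length than Hes1 in every library. It was at 13.09, 8.94 and 12.81 FPKM in PAKG, against 11.36, 8.45 and 9.60 FPKM in OC, with replicate 2 lowest in each group. The groups overlapped, with means of 11.6 ± 2.32 FPKM in PAKG and 9.80 ± 1.47 FPKM in OC (SD, n = 3 each) and a log2 fold change of 0.23 (limma adjusted p = 0.420). Bhlhe40, the most abundant gene of the other HES family list, was at 15.03, 13.57 and 13.91 FPKM in PAKG, against 13.49, 13.39 and 13.36 FPKM in OC. Its groups did not overlap, as in 33.4% of all genes tested. Its log2 fold change of 0.08 was not called (limma adjusted p = 0.510). Of the receptors and ligands outside the set, Dlk2 was the 1 tested, at 5.83 ± 0.884 FPKM in PAKG and 5.94 ± 0.529 FPKM in OC (SD, n = 3 each), a log2 fold change of -0.03 that lay on the other side of 0 with the libraries rescaled to a common total. Notch4, Dll3 and Dll4, named here after their values were seen, were each at most 0.07 FPKM in every library.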
